A study of Homo sapiens with 6 samples.

Results

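Prostaglandin E2 is a lipid messenger made from arachidonic acid, and 10 genes that act along its route were followed in T24 cells: PLA2G4A, which releases arachidonic acid from membrane lipids, the cyclooxygenases PTGS1 and PTGS2, the terminal synthases PTGES, PTGES2 and PTGES3, the uptake transporter SLCO2A1, the degrading enzyme HPGD, and the receptors PTGER2 and PTGER4. The genes were chosen by symbol for their place in the pathway, with earlier results of these data known, and all 10 were found among the 58174 genes of the files. T24 cells are a long-established line from a human bladder cancer. The cells stably carried a lentiviral shRNA in the pLKO.1 vector, either a scrambled control (shRNA-NC, n = 3) or a single hairpin against UBC9 (shRNA-UBC9, n = 3), so a direct effect of that hairpin on another transcript cannot be told apart from the loss of UBC9. UBC9 is the conjugating enzyme of SUMO, a small protein that is attached to other proteins, and the comparison asks which genes change when it is reduced.

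The synthesis of prostaglandin E2 starts with cytosolic phospholipase A2, the product of PLA2G4A. A cyclooxygenase then turns the arachidonic acid into prostaglandin H2. PTGS1 is generally present in resting cells, whereas PTGS2 is an early response gene that cytokines, growth factors and stress can switch on. A prostaglandin E synthase makes the final product, which leaves the cell and acts through 4 receptors, EP1 to EP4, encoded by PTGER1 to PTGER4. EP2 and EP4 couple to the stimulatory G protein and raise cyclic AMP. SLCO2A1 takes prostaglandin E2 back into cells, where HPGD inactivates it. Cyclooxygenase 2 is often raised in epithelial tumours, bladder cancer among them.

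The values were RPKM, reads scaled to the length of the gene and to the total of mapped reads, and the levels of different genes can therefore be set side by side per length. The files do not state read numbers. Low RPKM values rise in equal steps worth 1 read, and the step size with the gene lengths of GENCODE release 44 implied 28.2 to 36.0 M (mega) mapped reads per sample, with overlapping ranges in the groups. The read numbers given below were obtained in this way and may be off by a factor common to all samples. Of the markers of epithelium, KRT7, KRT8, KRT18 and KRT19 were high in both groups, while the epithelial cadherin CDH1 did not exceed 0.00449 and the uroplakins were near 0. The pan-leukocyte gene PTPRC did not exceed 0.102 in any sample, and 6 of 7 mast cell and platelet markers were listed at 0 throughout. This does not hold for the whole leukocyte list, of which 2 of 8 genes passed the filter given below and CD68 was higher in shRNA-UBC9.

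Of the 10 genes, 7 passed the filter on low values (RPKM of 0.5 or more in 3 or more samples) and were compared by limma on the log2(RPKM + 0.1) scale, with Benjamini-Hochberg adjustment over all 12428 tested genes. A gene was called with a |log2 fold change| above 1 and an adjusted p below 0.05. PTGS2 and PLA2G4A were called higher in shRNA-UBC9 cells and PTGER4 was called lower, while PTGES, PTGS1, PTGES2 and PTGES3 were not called. Thus 2 of 7 tested genes were called up, where 5.2% of all tested genes were, and 1 of 7 was called down, where 2.7% of all tested genes were. The median log2 fold change of the 7 genes was 0.27, beside 0.01 over all tested genes. HPGD, PTGER2 and SLCO2A1 were below the filter in both groups. All fold changes are on the log2(RPKM + 0.1) scale, on which the change of a weakly expressed gene comes out too small. The labels do not say that the replicates came from separate cultures, so the p-values measure the spread between these samples, which may be technical.

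**Figure D1:**
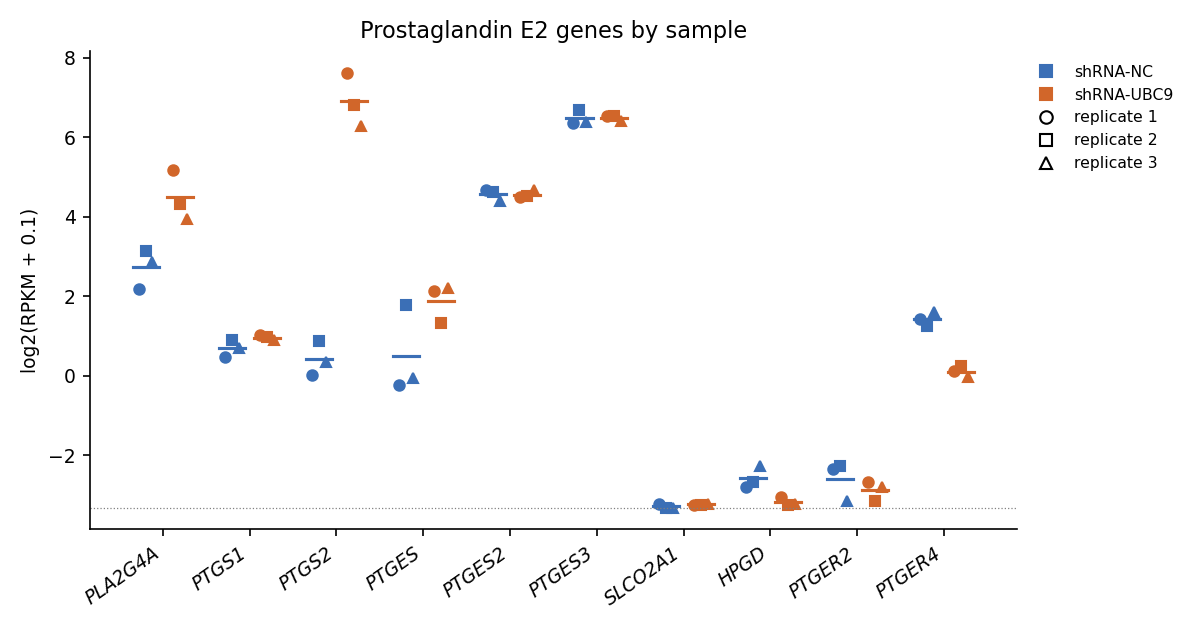
Level of each of the 10 genes in every sample on the log2(RPKM + 0.1) scale (vertical axis), with the genes in pathway order along the horizontal axis. Blue marks shRNA-NC and orange shRNA-UBC9, the marker shape gives the replicate, the short bar is the group mean, and the dotted line is the value of 0 RPKM. PTGS2 and PLA2G4A are higher and PTGER4 is lower in all 3 shRNA-UBC9 samples, PTGES overlaps between groups, and SLCO2A1, HPGD and PTGER2 lie near the dotted line.

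The sequences just upstream of 3 of these genes are shown because PTGS2 and PLA2G4A were the called enzymes and PTGES is the inducible synthase. Each run holds the 250 bases before the RefSeq start of the gene (GRCh38.p14), written 5′ to 3′ on the strand of the gene. For PTGS2 the GENCODE start lies further upstream, so this window falls inside the gene coordinates given below. Distances between genes were measured from the GENCODE start. Both strands of each window were searched for the core promoter element TATAAA, for TTNNGNAA (C/EBP), CGTCA (cyclic AMP response element half-site), TGANTCA (AP-1), GCGTGGGCG (EGR1) and the NF-kappaB motif, and capitals mark the matches.
PTGS2, chr1:186680424-186680673, minus strand: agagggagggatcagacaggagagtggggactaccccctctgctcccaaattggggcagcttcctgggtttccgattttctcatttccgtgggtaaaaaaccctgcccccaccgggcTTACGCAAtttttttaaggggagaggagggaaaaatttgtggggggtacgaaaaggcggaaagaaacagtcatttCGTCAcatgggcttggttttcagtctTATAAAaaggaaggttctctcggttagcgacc
PTGES, chr9:129753043-129753292, minus strand: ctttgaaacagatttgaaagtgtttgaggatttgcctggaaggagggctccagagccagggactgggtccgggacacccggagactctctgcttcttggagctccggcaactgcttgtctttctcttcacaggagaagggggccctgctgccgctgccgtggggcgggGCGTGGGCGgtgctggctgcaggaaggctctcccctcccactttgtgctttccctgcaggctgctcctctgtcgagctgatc
PLA2G4A, chr1:186828699-186828948, plus strand: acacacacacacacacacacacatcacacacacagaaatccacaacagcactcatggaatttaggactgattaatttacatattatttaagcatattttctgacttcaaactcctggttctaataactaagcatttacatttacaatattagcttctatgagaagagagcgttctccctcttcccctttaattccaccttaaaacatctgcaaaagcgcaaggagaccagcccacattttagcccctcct

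Counted from the start, the PTGS2 window held TATAAA, known as the TATA box, at -32 to -27, a half-site of the cyclic AMP response element at -58 to -54 and a C/EBP match at -133 to -126. These letters were present in 10.7%, 21.2% and 33.2% of the 35116 promoters of the same length, respectively. In PTGES the EGR1 motif lay at -82 to -74, and 0.72% of promoters held it. The PLA2G4A window, which opens with a run of CA repeats, held none of the 6 motifs. PTGER4 had a match to the NF-kappaB motif at -244 to -235, which 5.21% of promoters held. The same motifs were also matched in genes that did not pass the test. PTGES2 had EGR1 and C/EBP matches in its promoters, PTGS1 had a C/EBP match and the TATA letters, and PTGES3 had the CGTCA half-site, as did HPGD and PTGER2, which were below the filter. These matches describe letters and do not show that a factor was bound. A window without a match may still hold a site, since other forms of the motifs were not searched. This applies to the NF-kappaB motif in the PTGS2 window as well.

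PLA2G4A encodes cytosolic phospholipase A2, the calcium-responsive enzyme that prefers arachidonic acid, and lies at chr1:186828949-186988981 on the plus strand, with 18 exons (GENCODE release 44, GRCh38). Its RPKM was 4.43, 8.62 and 7.19 in shRNA-NC replicates 1 to 3, from 380, 858 and 699 reads, and 36.2, 19.8 and 15.3 in shRNA-UBC9 replicates 1 to 3, from 3749, 2010 and 1238 reads. All shRNA-UBC9 samples exceeded all shRNA-NC samples, although shRNA-UBC9 replicate 1 stood well above the other two. The mean rose from 6.74 ± 2.13 to 23.8 ± 11.0 (SD, n = 3), a ratio of means of 3.52. On the log2 scale the difference was 1.76 (SE 0.33, 95% interval 1.0 to 2.51), with a limma adjusted p of 0.0046, and it placed PLA2G4A at rank 271 from the highest of the 12428 tested genes. In bulk RNA, fewer expressing cells and less RNA per cell cannot be told apart, here and for every gene below.

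The other genes that release arachidonic acid or return it to lipids gave no call. Of 23 listed, 12 were tested, with 0 called by limma in either direction, also at an unadjusted p, and 1 up and 1 down at an adjusted p below 0.05 of any size, where 18.8% of tested genes were up and 18.0% down. Their median log2 fold change was 0.12. ANXA1, whose product is known as an inhibitor of phospholipase A2, had the highest level of this list and went from 47.2 ± 2.85 to 39.9 ± 4.59 (limma adjusted p = 0.0967). MBOAT7 and ACSL4, which help to place arachidonic acid into phospholipids, were at 25.6 and 24.0 in shRNA-NC and at 27.3 and 27.4 in shRNA-UBC9, and neither passed the test. Picked after its values were seen, LPCAT3, which also esterifies arachidonic acid, fell from 8.01 to 9.36 in shRNA-NC to 4.48 to 5.16 in shRNA-UBC9 (log2 fold change -0.85, limma adjusted p = 0.000559), short of the fold needed for a call. PLA2G4C, a sister gene of PLA2G4A also named after its values were seen, stayed below the filter, at 0.0203 to 0.0699 in shRNA-NC and 0.348 to 0.464 in shRNA-UBC9. In the fit with no filter it was the 1 gene of this list called up (log2 fold change 1.91, limma adjusted p = 0.00276).

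PTGS2, at chr1:186671791-186680922 on the minus strand with 10 exons, encodes cyclooxygenase 2. Its RPKM was 0.916, 1.74 and 1.16 in shRNA-NC replicates 1 to 3, from 144, 317 and 207 reads. In shRNA-UBC9 replicates 1 to 3 it was 197.3, 112.2 and 77.4, from 37487, 20835 and 11510 reads. The lowest shRNA-UBC9 sample thus lay far above the highest shRNA-NC sample, and the spread among the shRNA-UBC9 samples was wide. The group means were 1.27 ± 0.422 and 129 ± 61.7 (SD, n = 3), a ratio of means of 101. The log2 fold change of 6.49 (SE 0.33, 95% interval 5.73 to 7.25, limma adjusted p = 1.41e-05) was the highest but 9 of all tested genes. By level, PTGS2 moved from above 14.3% of the tested genes in shRNA-NC to above 98.1% in shRNA-UBC9.

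PTGS1, the constitutive cyclooxygenase 1 gene at chr9:122370530-122395703 on the plus strand with 11 exons, did not pass the test. It was measured at 1.29, 1.76 and 1.52 in shRNA-NC and at 1.93, 1.84 and 1.74 in shRNA-UBC9, from 222 to 402 reads. The ranges overlapped slightly, since the highest shRNA-NC sample lay above the lowest shRNA-UBC9 sample. The means were 1.52 ± 0.238 and 1.84 ± 0.0907, the log2 fold change was 0.27 with a 95% interval of -0.06 to 0.59, and the limma adjusted p was 0.171. The interval leaves room for a small rise and none for a change of the size of PTGS2.

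The cyclooxygenases were near the same level in control cells, and only PTGS2 was called higher in shRNA-UBC9. The make-up of their transcripts thus differed between the groups. PTGS2 made up 41.6%, 49.7% and 43.4% of the summed RPKM of both genes in the shRNA-NC samples. It made up 99.0%, 98.4% and 97.8% in the shRNA-UBC9 samples. The summed cyclooxygenase RPKM was 2.20, 3.50 and 2.68 in shRNA-NC and 199.2, 114.1 and 79.2 in shRNA-UBC9. PTGS2 and PLA2G4A also had the same order of samples within each group, with replicate 2 above 3 above 1 in shRNA-NC and replicate 1 above 2 above 3 in shRNA-UBC9. This order is a description of 6 samples and was not tested.

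PTGES, at chr9:129738331-129753042 on the minus strand with 3 exons, encodes the inducible microsomal synthase that often works with cyclooxygenase 2. In shRNA-NC it was measured at 0.742, 3.35 and 0.857, from 42, 220 and 55 reads. In shRNA-UBC9 the values were 4.30, 2.38 and 4.47, from 294, 159 and 239 reads. The groups overlapped, since shRNA-NC replicate 2 was higher than shRNA-UBC9 replicate 2. The means were 1.65 ± 1.47 and 3.72 ± 1.16, and the log2 fold change of 1.39 (SE 0.50, 95% interval 0.24 to 2.54) missed the threshold at a limma adjusted p of 0.0613. Without shRNA-NC replicate 2, the log2 fold change was 2.04 and the limma adjusted p was 0.00262, so 1 library decided this call. That library held 220 PTGES reads against 42 and 55 in the other controls, a gap far beyond counting error, and its cause was not tested.

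PTGES2 and PTGES3 carried most of the synthase transcripts and did not pass the test. PTGES2, the membrane-associated synthase 2 gene at chr9:128120693-128128462 on the minus strand with 7 exons, was at 25.2, 24.5 and 21.0 in shRNA-NC and at 22.4, 22.6 and 25.2 in shRNA-UBC9. The log2 fold change was -0.01, with a 95% interval of -0.24 to 0.22 (limma adjusted p = 0.967). PTGES3, at chr12:56663341-56688408 on the minus strand with 8 exons, encodes cytosolic synthase, which is also the HSP90 co-chaperone p23. It was at 81.8, 102.3 and 82.9 in shRNA-NC and at 91.9, 92.1 and 85.2 in shRNA-UBC9, from 8170 to 12047 reads. Here the log2 fold change was 0.02, with a 95% interval of -0.22 to 0.26 (limma adjusted p = 0.908). Its 5 processed pseudogenes in the files were listed at 0 in every sample. Reads of such copies could have been assigned to either, since the handling of reads with several matches is not given in the sources used here.

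Summed over the 3 synthases, RPKM was 107.7, 130.2 and 104.7 in shRNA-NC and 118.7, 117.1 and 114.8 in shRNA-UBC9, with overlapping groups. PTGES3 accounted for 74.2% to 79.2% of this sum over the 6 samples. PTGES accounted for 0.689%, 2.57% and 0.818% of it in shRNA-NC and for 3.62%, 2.03% and 3.89% in shRNA-UBC9. So the synthase known to act with cyclooxygenase 2 remained a minor share of the synthase transcripts in both groups.

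**Figure D2:**
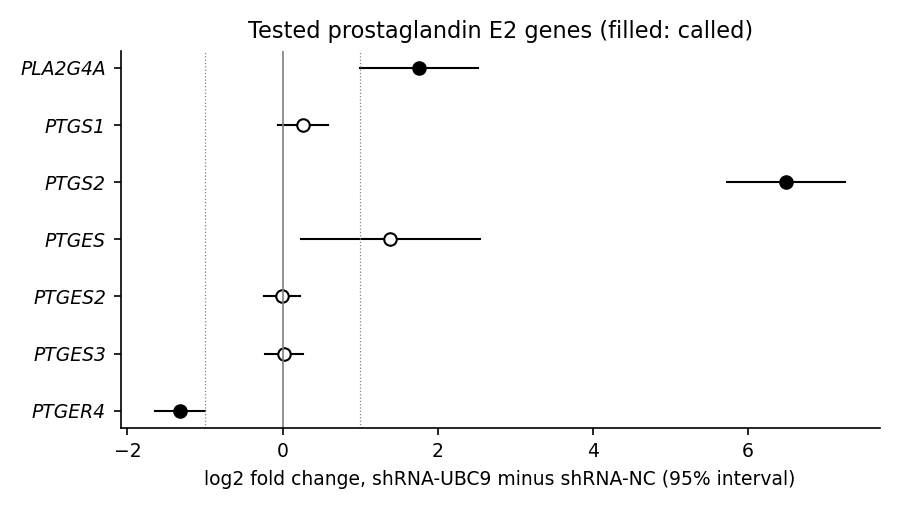
Log2 fold change, shRNA-UBC9 minus shRNA-NC, of the 7 tested genes (horizontal axis) with 95% intervals from limma, n = 3 per group. Filled points were called, and dotted lines mark -1 and 1, the fold needed for a call. PTGS2 lies at 6.49 and PLA2G4A at 1.76, PTGER4 lies at -1.32, and the interval of PTGES runs from 0.24 to 2.54 without a call.

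Transcripts for uptake and breakdown were scarce in both groups. SLCO2A1, the prostaglandin transporter gene at chr3:133932701-134052184 on the minus strand, was at 0.0063, 0 and 0 in shRNA-NC and at 0.0052, 0.0054 and 0.0067 in shRNA-UBC9, which is 1 read or none per sample. HPGD, which encodes 15-hydroxyprostaglandin dehydrogenase and lies at chr4:174490175-174523154 on the minus strand, was at 0.0424, 0.0574 and 0.107 in shRNA-NC, from 7, 11 and 20 reads. In shRNA-UBC9 it was at 0.0201, 0.0051 and 0.0064, from 4, 1 and 1 reads. The HPGD groups did not overlap, but the exact two-sided permutation test gave p = 0.1, the smallest that 3 samples against 3 allow, and the level was low in all samples. In the fit of all 22896 genes above 0 in any sample, its log2 fold change was -0.60 (limma adjusted p = 0.0489), short of the fold needed for a call. For SLCO2A1 the same exact permutation test gave p = 0.3.

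Of the other prostanoid enzymes and the exporter, 10 of 15 listed were tested, with 1 called up, 0 called down and a median log2 fold change of 0.001. The shares over all tested genes were 5.2% up and 2.7% down. Without shRNA-NC replicate 3 the list had 3 calls up, with AKR1C1 and AKR1C3 added, and without shRNA-UBC9 replicate 1 it had 2, with AKR1C1 added. These aldo-keto reductases are close in sequence, so the division of reads between them is uncertain. AKR1B1, an aldo-keto reductase known to make prostaglandin F2 alpha from prostaglandin H2, was at 27.2, 29.5 and 26.2 in shRNA-NC and at 75.1, 65.0 and 55.9 in shRNA-UBC9. The groups did not overlap, and its log2 fold change was 1.23 (SE 0.12, limma adjusted p = 0.000245). CBR1, a carbonyl reductase that can act on prostaglandin E2, was at 29.2 ± 1.20 and 31.0 ± 1.64 and did not pass the test (limma adjusted p = 0.446). FAM213B, a prostamide and prostaglandin F synthase, fell by 0.53 on the log2 scale and CBR3 fell by 0.70, with limma adjusted p-values of 0.0104 and 0.00547, both short of the fold needed for a call. ABCC4, an exporter of prostaglandin E2 named after its values were seen, fell by 0.42 on the same scale (limma adjusted p = 0.0315), from 4.43 to 5.64 in shRNA-NC to 3.22 to 3.97 in shRNA-UBC9.

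Among the prostaglandin E2 receptors, only PTGER4 passed the filter. By level it lay above 27.5% of the tested genes in shRNA-NC and above 9.3% in shRNA-UBC9. PTGER4 encodes EP4 and lies at chr5:40679915-40693735 on the plus strand, with 3 exons. It was at 2.57, 2.27 and 2.90 in shRNA-NC, from 304, 312 and 389 reads, and at 0.973, 1.08 and 0.868 in shRNA-UBC9, from 139, 150 and 97 reads. Every shRNA-UBC9 sample was lower than every shRNA-NC sample, and the spread within each group was small. The means were 2.58 ± 0.314 and 0.972 ± 0.104 (SD, n = 3), and the log2 fold change was -1.32 (SE 0.14, 95% interval -1.65 to -1.0, limma adjusted p = 0.000395). Raising the pseudocount to 1 moved this value to -0.86 at a limma adjusted p of 0.000422, so PTGER4 was then no longer called for want of fold. It was at rank 152 from the lowest log2 fold change.

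PTGER2, the EP2 gene at chr14:52314305-52328598 on the plus strand, was at 0.0948, 0.105 and 0.0119 in shRNA-NC and at 0.0561, 0.0115 and 0.0430 in shRNA-UBC9, from 1 to 9 reads. The groups overlapped, and the exact permutation test gave p = 0.4. The remaining prostaglandin E2 receptors were fainter still, with PTGER1 listed at 0 in every sample and PTGER3 at 0.00367 or less. Of the 8 genes listed as other prostanoid receptors or their regulator, only TBXA2R, the thromboxane receptor gene, and PTGFRN, which encodes a negative regulator of the prostaglandin F receptor, were tested, and neither was called. TBXA2R was at 0.913 ± 0.213 and 1.19 ± 0.237, and PTGFRN at 0.572 ± 0.503 and 1.03 ± 0.425. Without shRNA-NC replicate 2, the sample that also decided the call of PTGES, PTGFRN was called up (log2 fold change 1.51, limma adjusted p = 0.014). PTGIR, the prostacyclin receptor gene, was below the filter and was named after its values were seen, at 0 to 0.0238 in shRNA-NC and 0.157 to 0.256 in shRNA-UBC9. With no filter it was called up (log2 fold change 1.47, limma adjusted p = 0.0037).

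Downstream of EP2 and EP4, the chain from the stimulatory G protein over adenylyl cyclases to protein kinase A and CREB gave no call. Of 30 listed genes, 21 were tested, with 0 called by limma in either direction, also at an unadjusted p, and at an adjusted p below 0.05 of any size 1 was up and 7 were down, beside 18.8% and 18.0% of all tested genes. The median log2 fold change of these 21 genes was -0.14. GNAS, the gene of the stimulatory G protein, was at 73.9 ± 7.03 and 67.3 ± 3.78 (limma adjusted p = 0.317). PRKAR1A and ADCY3, a protein kinase A subunit and an adenylyl cyclase, were also well expressed and did not pass the test. Named after their values were seen, PRKACA, the catalytic subunit of protein kinase A, fell by 0.71 on the log2 scale (limma adjusted p = 0.00249) and ADCY6 fell by 0.55 (limma adjusted p = 0.00174), while ADCY7 rose by 0.59 (limma adjusted p = 0.0192).

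Genes that cyclic AMP and CREB are known to induce included 4 called up among 9 tested of 14 listed, with 0 called down and a median log2 fold change of 0.87, where 5.2% of all tested genes were called up. NR4A1, FOS and FOSB were below an RPKM of 1 in every shRNA-NC sample, and the count was 1 with a pseudocount of 1 and 1 with an RPKM of 1 or more in every sample. NR4A1 and FOS were below 0.5 in all shRNA-NC samples, and FOSB in replicates 2 and 3. These genes therefore passed the filter through the shRNA-UBC9 samples, where they were higher, so the count of 4 cannot be weighed against the 5.2%. The genes of this list also respond to growth factors and stress, so the list is not specific to prostaglandin receptors. NR4A1, an orphan nuclear receptor, was at 0.427, 0.455 and 0.401 in shRNA-NC and at 1.87, 1.70 and 1.42 in shRNA-UBC9 (log2 fold change 1.74, limma adjusted p = 0.000249). FOS and FOSB, subunits of AP-1, had log2 fold changes of 1.94 and 1.34 (limma adjusted p = 0.00118 and 0.000691). AREG, which encodes the growth factor amphiregulin, had the widest spread, at 1.63, 3.89 and 1.40 in shRNA-NC and 12.4, 4.77 and 4.86 in shRNA-UBC9 (log2 fold change 1.63, limma adjusted p = 0.0229). Its call was lost without shRNA-NC replicate 1 (limma adjusted p = 0.0807) and without shRNA-NC replicate 3 (limma adjusted p = 0.0809). CREM, a repressor and activator that feeds back on the cyclic AMP response, rose from 5.28 ± 0.314 to 9.70 ± 0.824 (limma adjusted p = 0.000486), short of the fold needed for a call. DUSP1, a MAP kinase phosphatase and the most abundant of the list, was at 59.6 ± 9.51 and 78.3 ± 9.73 (limma adjusted p = 0.0514).

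The lipoxygenase branch, which turns arachidonic acid into leukotrienes, was mostly below the filter. Of 19 listed genes, 4 were tested, with 1 called up and 0 called down and a median log2 fold change of -0.08, beside 5.2% and 2.7% of all tested genes called. With no filter 3 were called up, with ALOXE3 and GGT1 added, both named after their values were seen, and with an RPKM of 1 or more in every sample 0 were, since ALOX5AP was then not tested. ALOX5AP, the partner protein of 5-lipoxygenase, was at 0.332, 0.825 and 0.4997 in shRNA-NC and at 22.8, 2.98 and 3.51 in shRNA-UBC9 (log2 fold change 3.35, SE 0.69, limma adjusted p = 0.00686). It was below 0.5 in shRNA-NC replicates 1 and 3 and passed the filter through the shRNA-UBC9 samples, where it was higher. The count of 1 called up therefore cannot be weighed against the 5.2%. The mean of ALOX5AP in shRNA-UBC9, 9.75 ± 11.3, was set largely by replicate 1, which was also the highest for PTGS2 and PLA2G4A. Without that sample, the log2 fold change of ALOX5AP was 2.43 (limma adjusted p = 0.000926). ALOX5 itself, named after its values were seen, did not exceed 0.0228 in any sample. LTA4H, the leukotriene A4 hydrolase gene, was at 10.8 ± 0.996 and 9.57 ± 0.868 and did not pass the test.

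Proteins that bind AU-rich elements, through which the PTGS2 messenger is known to be degraded or stabilised, and the kinases above them gave 1 call. Of 14 listed genes, 13 were tested, with 0 called up and 1 called down, beside 5.2% and 2.7% of all tested genes. Their median log2 fold change was -0.16. ZFP36L2, a decay factor, was at 15.2, 14.8 and 15.6 in shRNA-NC and at 5.50, 7.52 and 8.55 in shRNA-UBC9 (log2 fold change -1.09, limma adjusted p = 0.00121), and without shRNA-UBC9 replicate 1 its log2 fold change of -0.92 was short of a call (limma adjusted p = 0.000457). Its relative ZFP36, or tristetraprolin, named after its values were seen, rose by 0.88 on the log2 scale (limma adjusted p = 0.00312), so related decay factors moved in opposite directions. Without shRNA-UBC9 replicate 3, ZFP36 was called up at 1.01 (limma adjusted p = 0.0018). RBM3, which is known to bind the PTGS2 messenger, fell from 123 ± 4.59 to 100.6 ± 3.30 (log2 fold change -0.29, limma adjusted p = 0.0195). KHSRP and HNRNPD, both decay factors, did not pass the test.

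Of the transcription factors known from the PTGS2 and PTGES promoters, 15 of 18 listed were tested, 4 were called up and 0 down, and the median log2 fold change was 0.44. Over all tested genes, 5.2% were called up and 2.7% down, and the list was chosen with earlier results of these data known. EGR1, whose motif was matched in the PTGES window, was at 1.10, 2.27 and 1.02 in shRNA-NC and at 51.3, 17.8 and 15.9 in shRNA-UBC9 (log2 fold change 4.06, SE 0.45, limma adjusted p = 0.000464). CEBPB, a C/EBP factor, was at 14.6, 17.4 and 14.0 in shRNA-NC and at 69.5, 82.5 and 59.8 in shRNA-UBC9 (log2 fold change 2.19, limma adjusted p = 3.06e-05). Its relative CEBPD rose from 2.84 ± 0.585 to 6.04 ± 2.02 (log2 fold change 1.02, limma adjusted p = 0.017), at the edge of the threshold. The call of CEBPD was lost without shRNA-NC replicate 1 (1.02, limma adjusted p = 0.0533) or 3 (0.88, 0.0644) and without shRNA-UBC9 replicate 1 (0.85, 0.0414) or 2 (0.88, 0.0549). JUNB, an AP-1 subunit, rose from 12.9 ± 1.89 to 41.1 ± 6.06 (log2 fold change 1.66, limma adjusted p = 0.000135). FOSL1 and JUN, also AP-1 subunits, rose by 0.94 and 0.84 on the log2 scale (limma adjusted p = 0.00595 and 0.000638), short of the fold needed for a call, while ATF4 did not pass the test. None of the 3 windows printed above held the AP-1 letters searched.

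**Figure D3:**
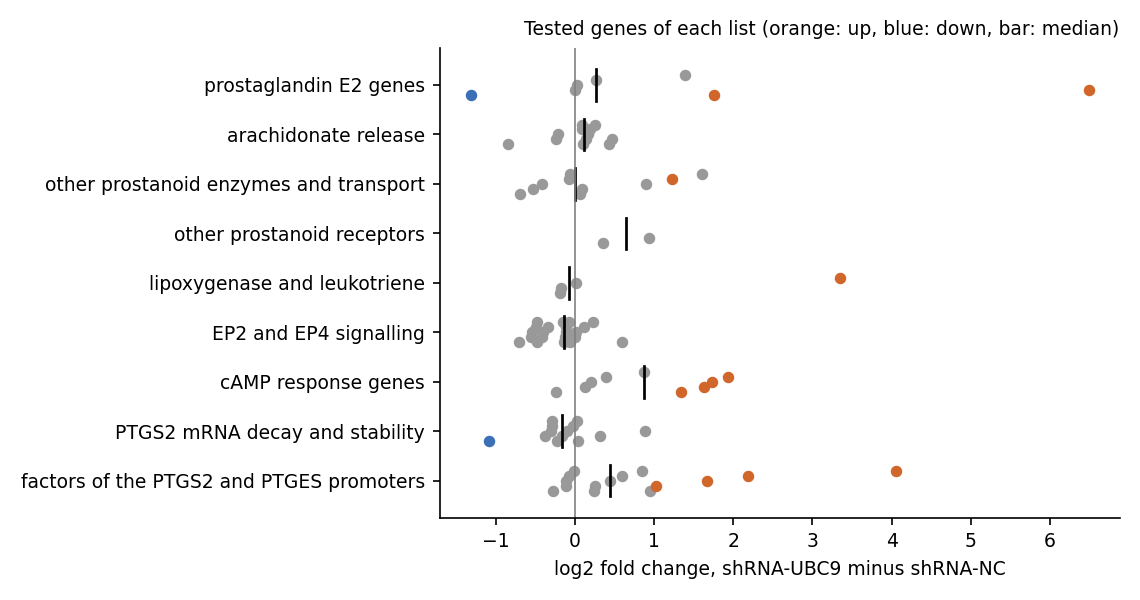
Log2 fold change, shRNA-UBC9 minus shRNA-NC (horizontal axis), of every tested gene in the prostaglandin E2 group and in the 8 lists of related genes (vertical axis, with small vertical offsets that only separate the points). Orange points were called up, blue points were called down, grey points were not called, and the black bar is the median of the list. The prostaglandin E2 genes reach from -1.32 to 6.49, and calls elsewhere lie mainly among the cyclic AMP response genes and the promoter factors, with 4 each.

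PTGS2 and PLA2G4A are neighbours on chromosome 1 and are transcribed away from each other, with starts 148.0 kb apart. Within 1 Mb of the PTGS2 start, GENCODE release 44 lists 20 genes, 10 of them had a name in the files, and 3 passed the filter. The third was TPR, a nuclear pore gene on the other side of PTGS2 with its start at -305.2 kb, which was at 27.0 in shRNA-NC and 25.6 in shRNA-UBC9 (log2 fold change -0.08, limma adjusted p = 0.558). PACERR, an antisense RNA that starts next to PTGS2 and is known as a regulator of it, was listed at 0 in all 6 samples. Whether reads were counted by strand is not given in the sources used here, so any PACERR reads could have been assigned elsewhere.

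**Figure D4:**
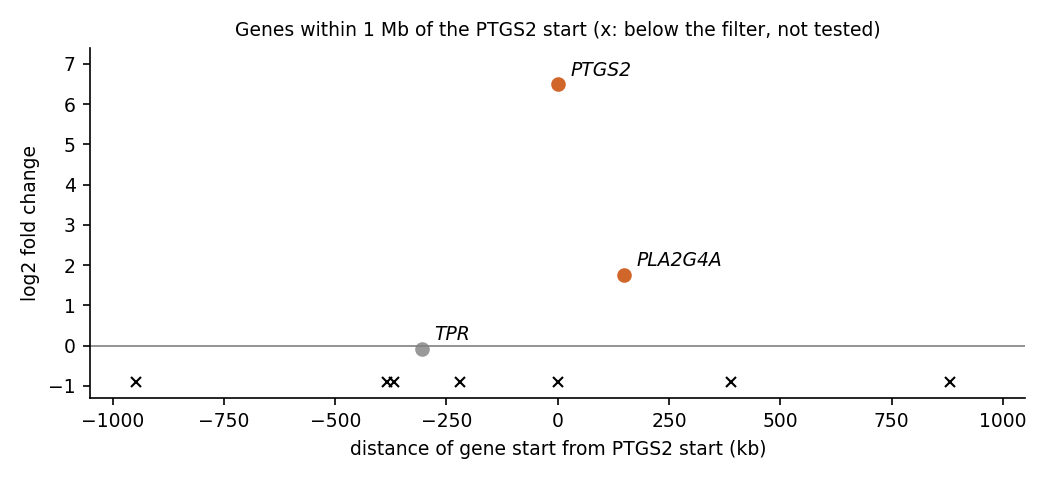
Genes within 1 Mb of the PTGS2 start, by the distance of their start from that of PTGS2 in kb (horizontal axis) and their log2 fold change, shRNA-UBC9 minus shRNA-NC (vertical axis). Orange points were called up, the grey point was not called, and crosses at the foot, which have no value on the vertical axis, mark genes below the filter. PTGS2 at 6.49 and PLA2G4A at 1.76 stand beside TPR at -0.08.

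The tested genes whose pattern over the 6 samples was most like that of PTGS2, by Pearson correlation of log2(RPKM + 0.1), were CCL20 (0.9997), SERPINB7 (0.9992), NAMPT (0.9991), TAF13 (0.9988) and PANX1 (0.9987). The 6 points share the contrast between the groups, which sets most of each correlation. CCL20, a chemokine, went from 0.327 ± 0.152 to 94.9 ± 50.0, and NAMPT, an enzyme of NAD synthesis, from 10.9 ± 2.03 to 126.5 ± 41.3.

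Some markers of cell identity also differed between the groups. Of 5 tested epithelial markers, 1 was called down and 4 were lower at an adjusted p below 0.05, beside 2.7% and 18.0% of all tested genes. The remaining one, EPCAM, went the other way and did not pass the test. It was at 0.412, 0.986 and 0.575 in shRNA-NC and at 2.51, 1.27 and 0.732 in shRNA-UBC9. The summed RPKM of all 6 listed epithelial markers, nearly all from the keratins, was 938.1 to 1108 in shRNA-NC and 425.8 to 563.5 in shRNA-UBC9. KRT7, a cytokeratin, fell from 555.7 ± 62.3 to 258.4 ± 37.6. Of 9 listed urothelial markers, 3 were tested, and the other 6 were below the filter. Of the 3, 2 were called down and all 3 were lower at an adjusted p below 0.05, beside the same shares. PPARG, a urothelial transcription factor, fell from 17.5 ± 3.04 to 4.21 ± 2.31 and FOXA1 from 11.5 ± 0.879 to 5.45 ± 1.0, both called down. Of the leukocyte markers, CD68, a lysosomal protein not limited to leukocytes, rose from 2.65 ± 0.970 to 32.2 ± 15.1 and was called up, while the summed level of all 8 was 2.24 to 4.24 and 20.1 to 49.6. PTPRC was at 0.102 or less and MS4A1 was listed at 0 in both groups, while 2 of the 8 leukocyte markers passed the filter. Of 2 tested fibroblast markers, PDGFRB was called down, while the other was higher at an adjusted p below 0.05 without a call. Each passed the filter through the group where it was higher, so these counts cannot be weighed against the shares over all tested genes. The fibroblast sum was 0.988 to 1.32 in shRNA-NC and 0.893 to 1.305 in shRNA-UBC9, with overlapping groups. CDH5, the 1 tested endothelial marker, was called down, and the endothelial sum was 2.635 to 3.26 in shRNA-NC and 0.349 to 1.07 in shRNA-UBC9. The part of these changes in the prostaglandin results was not tested.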

How the data were processed

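RNA-seq of poly(A) RNA from T24 cells was analysed for 3 shRNA-NC and 3 shRNA-UBC9 samples, grouped by their labels. Reads had been trimmed by the authors and mapped to GRCh38 (hg38) in the CLC Biomedical Genomics Workbench, and the deposited values were RPKM of 58174 genes. The annotation release, the strand setting and the treatment of reads with several matches are not given in the sources used here. RPKM corrects for gene length and mapped reads and not for RNA composition, and no count model was applied to it.

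Genes with an RPKM of 0.5 or more in 3 or more samples (12428) were compared by limma 3.58.1 in R 4.3.3 (eBayes with intensity trend) on log2(RPKM + 0.1), with Benjamini-Hochberg adjustment over all of them. Members below the filter were compared by an exact two-sided permutation test. Calls of other genes below it came from the limma fit with no filter. Read numbers were taken from the steps of RPKM within a tolerance of 0.02 of a whole number. With gene lengths from GENCODE release 44, 9 of 11 genes implied a depth within 15% of the median, and no read numbers are given for PTGES2, which did not. These numbers set the counting precision only. No values above 0 were shared between samples.

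The members and lists were chosen with earlier results of these data known. The genes named are the members, in each list every called gene and the 3 tested genes with the highest mean RPKM, and the 5 genes most correlated with PTGS2. All other genes named, whether or not the text says so beside them, were named after their values were seen, and 1 gene of the rule is not reported here. Promoters were found in RefSeq (GRCh38.p14) for 9 of 10 members. Scripts were tested on simulated data. Alternatives were other pseudocounts, filters, normalizations, thresholds, no intensity trend, a replicate block and leaving out each sample. Other calculations used Python 3.11.15, numpy 2.4.6, pandas 2.3.3, scipy 1.17.1 and matplotlib 3.10.9.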

Additional observations from a re-analysis of the deposited data

How the results depend on the processing

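PTGS2 and PLA2G4A kept their direction and call in every alternative that tested them, with log2 fold changes of 5.75 to 6.81 and 1.41 to 2.03 and limma adjusted p-values of 1.13e-05 to 0.000335 and 0.00241 to 0.0195. PTGER4 kept its direction (-1.41 to -0.86) and lost its call with a pseudocount of 1, at -0.86. PTGES was called without shRNA-NC replicate 2 (2.04) and at an unadjusted p (0.0239), with limma adjusted p-values of 0.00262 to 0.191 over its alternatives. PTGS1 was never called. With an RPKM of 1 or more required in every sample, PTGS2, PTGES and PTGER4 were no longer tested, which left 1 member up and 0 down. A pseudocount of 1 gave 0 members down. Without each sample in turn, 2 to 3 members were up and 1 was down.

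PTGES2 and PTGES3 lay so near 0 that their sign turned. Leaving out 1 sample, PTGES2 ranged from -0.088 to 0.043 and was above 0 without shRNA-NC replicates 1 and 2 (0.043 and 0.025) and without shRNA-UBC9 replicates 1 and 2 (0.023 and 0.017). PTGES3 was -0.051 after quantile normalization and -0.024 after median scaling, and leaving out 1 sample it ranged from -0.038 to 0.123, with -0.038 and -0.029 without shRNA-NC replicates 1 and 3 and -0.001 without shRNA-UBC9 replicate 2. Neither passed the test in any of these.

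Over all genes, 646 were called up and 335 down. A pseudocount of 1 gave 391 and 161, an RPKM of 1 or more in every sample 342 and 210, and no minimum fold change 2339 and 2237. Leaving out 1 sample gave 604 to 702 up and 308 to 363 down. Of 256 counts for the lists of related genes, 21 moved by more than 1.5 times.

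The replicate numbers shared by the groups did not pair the samples. The deviations of same-numbered samples correlated at -0.367, 0.073 and -0.17. With a replicate block, 642 genes were up and 332 down, the members gave 2 up and 1 down, and no member changed its call.

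Depth limits the statements on SLCO2A1, HPGD and PTGER2, which rested on 0 to 20 reads per sample.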
